A study of Mus musculus with 3 samples.

Results

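Cycling cells were examined in single-cell suspensions of FA (folic acid)-treated mouse kidneys, collected on day 14. FA crystallises in and injures the renal tubule, and leukocytes then enter the kidney. The 3 droplet libraries came from Aoah-/- mouse 2, Aoah-/- mouse 3 and WT mouse 3, 1 kidney sample each, from animals given in the labels as 6 to 8 weeks old. All 3 animals received FA, so no untreated kidney is part of the comparison. Aoah-/- mice lack acyloxyacyl hydrolase, an enzyme that removes acyl chains from bacterial lipopolysaccharide, in the whole body and not in a single cell type. With 2 Aoah-/- libraries and 1 WT library, no test across mice was made. Values are given for each library, and intervals cover counting error only.

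A cell that divides copies its DNA in S phase and separates the copies in mitosis, and each step needs its own set of proteins. Genes for replication are switched on mainly by E2F factors before S phase. Genes for the spindle and the kinetochore, the protein plate by which a chromosome is pulled, are held back by the DREAM complex in resting cells and reach their peak in G2 and M. In a healthy adult kidney few tubule cells divide, whereas after tubular injury surviving tubule cells re-enter the cycle, and macrophages and lymphocytes can divide within the tissue.

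Cells were chosen by measured values: a barcode was kept with 200 or more genes, at most 50% mitochondrial UMIs (unique molecular identifiers, counts of single mRNA molecules) and a UMI total no lower than the lowest in Aoah-/- mouse 3, whose barcodes start at the highest total. A kept barcode was called cycling when Mki67 and Top2a were both detected, or when 3 or more of the 5 genes Mki67, Top2a, Birc5, Cdk1 and Ccna2 were detected. This rule selected 616 of 48404 kept barcodes, or 1.27%. There were 212 of 15441 in Aoah-/- mouse 2, 239 of 19692 in Aoah-/- mouse 3 and 165 of 13271 in WT mouse 3. The whole libraries held 25516, 24693 and 23072 barcodes with 167222984, 161015021 and 158551992 UMIs. The lowest UMI total of any barcode was 500 in Aoah-/- mouse 2 and WT mouse 3 and more than 3 times that in Aoah-/- mouse 3, which is why the same limit was set in every library. The shallowest cycling cell held 1777, 1677 and 1718 UMIs. Among kept barcodes, 78 barcode sequences were shared by the 2 Aoah-/- libraries, 56 by Aoah-/- mouse 2 and WT mouse 3, and 75 by Aoah-/- mouse 3 and WT mouse 3. None of these shared barcodes was cycling in both libraries.

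Mki67 encodes the chromosome-coating protein Ki-67, Top2a a topoisomerase that untangles DNA, Birc5 the survivin subunit of the chromosomal passenger complex, Cdk1 the mitotic kinase and Ccna2 cyclin A2. Levels are given as UMIs summed over the cells of a class in a library, per 1000000 UMIs of that class (CPM). Mki67 stood at 517, 566 and 699 CPM in the cycling cells of Aoah-/- mouse 2, Aoah-/- mouse 3 and WT mouse 3, the order of libraries used throughout. Top2a stood at 596, 587 and 627 CPM, Birc5 at 267, 308 and 399 CPM. Cdk1 was at 161, 157 and 247 CPM and Ccna2 at 114, 115 and 135 CPM. Each of the 5 was highest in the WT library. These levels were fixed in part by the selection and are a description. All 5 genes were found together in 77, 87 and 73 cells. At the edge of the rule, 89, 108 and 57 cells entered with 2 or 3 genes, with a median of 8281, 5887.5 and 7281 UMIs per cell, while 59, 107 and 43 cells with a different pair of genes stayed outside, with 7964, 4825 and 7879.

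Promoter sequence is shown here because genes of this kind share known motifs. The cell cycle genes homology region (CHR, TTTGAA) is an element bound by the DREAM and MMB complexes, and the CCAAT box binds NF-Y. The lines below give the 100 bases before the RefSeq gene start for 4 of the selection genes and for Kif11 and Cdc20, the genes of a spindle motor and of the activator of the anaphase-promoting complex, which were both much higher in cycling cells. Sequences are from RefSeq on GRCm38.p6, written 5′ to 3′ on the gene's own strand, and capitals mark each TTTGAA or CCAAT on either strand, so that TTCAAA and ATTGG are the same motifs read from the other strand. Ccna2 had no entry in the promoter table.
Mki67: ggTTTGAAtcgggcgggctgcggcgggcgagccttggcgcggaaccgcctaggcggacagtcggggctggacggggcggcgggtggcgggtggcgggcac
Top2a: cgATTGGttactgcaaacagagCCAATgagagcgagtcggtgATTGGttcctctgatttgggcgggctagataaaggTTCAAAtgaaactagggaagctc
Birc5: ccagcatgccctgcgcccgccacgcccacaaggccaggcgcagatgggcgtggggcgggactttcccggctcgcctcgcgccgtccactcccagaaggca
Cdk1: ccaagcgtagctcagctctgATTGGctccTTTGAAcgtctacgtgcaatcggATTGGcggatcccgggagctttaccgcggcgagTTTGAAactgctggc
Kif11: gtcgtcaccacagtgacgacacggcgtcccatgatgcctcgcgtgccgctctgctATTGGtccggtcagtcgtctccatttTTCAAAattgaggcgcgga
Cdc20: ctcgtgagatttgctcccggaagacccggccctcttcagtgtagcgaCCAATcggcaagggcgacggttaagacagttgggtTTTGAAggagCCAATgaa

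These stretches lie at chr7:135716380-135716479 (minus strand, Mki67), chr11:99024190-99024289 (minus, Top2a), chr11:117849137-117849236 (plus, Birc5), chr10:69352913-69353012 (minus, Cdk1), chr19:37376282-37376381 (plus, Kif11) and chr4:118437344-118437443 (minus, Cdc20), upstream of the first RefSeq base. In the GENCODE annotation, 26 of the Cdk1 bases and 9 of the Cdc20 bases fall within an exon. A CHR began 23 bases before the start of Top2a, 19 before Kif11 and 18 before Cdc20, each with at least 1 CCAAT box further upstream. Cdk1 carried a CHR at 71 and at 15 bases and CCAAT boxes at 80 and 48 bases before its start. The Mki67 match lay 98 bases upstream with no CCAAT box in the window, and Birc5 had neither set of letters there.

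The cells passing the rule made up 1.37% of kept barcodes in Aoah-/- mouse 2 (exact binomial 95% interval 1.20 to 1.57%), 1.21% in Aoah-/- mouse 3 (1.07 to 1.38%) and 1.24% in WT mouse 3 (1.06 to 1.45%). WT mouse 3 lay between the 2 Aoah-/- mice and all 3 intervals overlapped. The mean of the Aoah-/- libraries was 0.0500 percentage points above WT, less than the SD of 0.113 between those libraries. Cycling cells held more RNA than the rest. Their median was 9981, 8855 and 10478 UMIs against 5431, 3647 and 6338.5 in non-cycling cells, and their median share of mitochondrial UMIs was 5.75, 6.33 and 6.88% against 10.9, 15.1 and 13.3%. A rule based on detection finds more cells at greater depth, so each cell was also thinned to the UMI limit before the rule was applied. Thinned shares were 0.583, 0.543 and 0.603%.

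**Figure D1:**
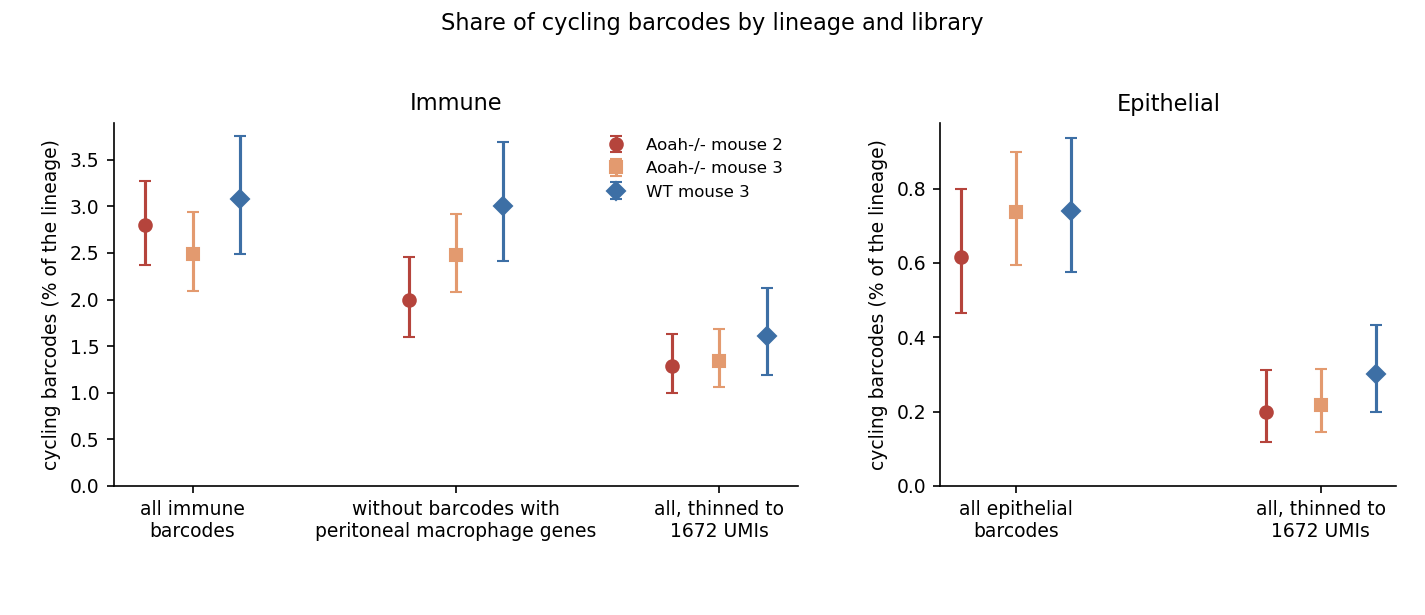
Cycling barcodes as a percentage of the immune lineage (left) and of the epithelial lineage (right) in each of the 3 libraries (y axes, percent, from 0), for all barcodes, for immune barcodes without those holding 3 or more peritoneal macrophage genes, and after thinning every cell to the UMI limit; bars are exact binomial 95% intervals for counting error. Immune shares of all barcodes lie at 2.49 to 3.07% and epithelial shares at 0.615 to 0.740%, and the intervals of the 3 libraries overlap in each set.

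Lineage was assigned by the higher of the summed UMIs of Ptprc, Tyrobp and Cd3g (immune) and of Lrp2, Slc34a1 and Epcam (epithelial). Ptprc encodes CD45, Tyrobp a signalling adaptor of myeloid and NK cells and Cd3g a T cell receptor subunit, while Lrp2 encodes megalin, Slc34a1 the proximal phosphate transporter and Epcam an epithelial adhesion protein. By this rule 379 cycling cells were immune (150, 137 and 92), 220 were epithelial (56, 95 and 69) and 17 were undecided (6, 7 and 4). Immune cells were 70.8% of cycling cells in Aoah-/- mouse 2 (64.1 to 76.8%), 57.3% in Aoah-/- mouse 3 (50.8 to 63.7%) and 55.8% in WT mouse 3 (47.8 to 63.5%). The immune share in Aoah-/- mouse 2 stood above the intervals of the other libraries, while Aoah-/- mouse 3 and WT mouse 3 overlapped.

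Within its own lineage, a larger share of immune cells than of epithelial cells was cycling in all 3 libraries. Cycling cells were 2.80% of 5366 immune cells in Aoah-/- mouse 2 (2.37 to 3.27%), 2.49% of 5507 in Aoah-/- mouse 3 (2.09 to 2.93%) and 3.07% of 2993 in WT mouse 3 (2.48 to 3.76%). Epithelial shares were 0.615% of 9107 (0.465 to 0.798%), 0.736% of 12913 (0.596 to 0.899%) and 0.740% of 9325 (0.576 to 0.936%). WT was highest in both lineages, although the intervals of the 3 libraries overlapped in each. The order rested on the cell filter. For the cycling share of epithelial cells the Aoah-/- mean minus WT, −0.0646 percentage points, turned to 0.0237 with a limit of 500 UMIs, 0.0877 with 3000 UMIs and 0.239 with at most 20% mitochondrial UMIs. For the cycling share of immune cells it went from −0.432 to −0.00632 with 500 UMIs. The limit of 500 UMIs adds barcodes to Aoah-/- mouse 2 and WT mouse 3 alone, since Aoah-/- mouse 3 has none below the main limit. That setting is therefore unequal between the libraries. After thinning, the immune shares were 1.29, 1.34 and 1.60% and the epithelial shares 0.198, 0.217 and 0.300%. Epithelial cells were the deeper cells, with non-cycling medians of 8315, 4140 and 8528 UMIs against 3749.5, 3267.5 and 3484 in immune cells.

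Some cycling barcodes held RNA of both lineages. At least 2 UMIs of the epithelial genes were found in 36.7, 38.0 and 33.7% of cycling immune barcodes, against 22.6, 22.4 and 14.3% of the non-cycling ones. At least 2 UMIs of the immune genes were found in 14.3, 30.5 and 14.5% of cycling epithelial barcodes, against 6.83, 13.5 and 2.99%. Cycling barcodes were also deeper, with median UMIs of 9268, 8789 and 9102 in immune cells and 16542.5, 9455 and 17340 in epithelial cells. Doublets and free RNA were not told apart, and their part in the mixed barcodes was not tested.

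Each barcode was also given a marker class, the one of 22 lists of 8 cell type genes with the most detected genes (at least 2, without a tie). Proximal tubule cells, which reabsorb most of the filtrate, numbered 155 of the 616. Macrophages numbered 154 and T lymphocytes 135. Conventional dendritic cells (22), ascending limb cells (21), NK cells (18), endothelial cells (11) and principal cells (6) followed, 64 cells had no single leading list, and the other classes held 5 cells or fewer. The plot of class shares gives the values by library.

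**Figure D2:**
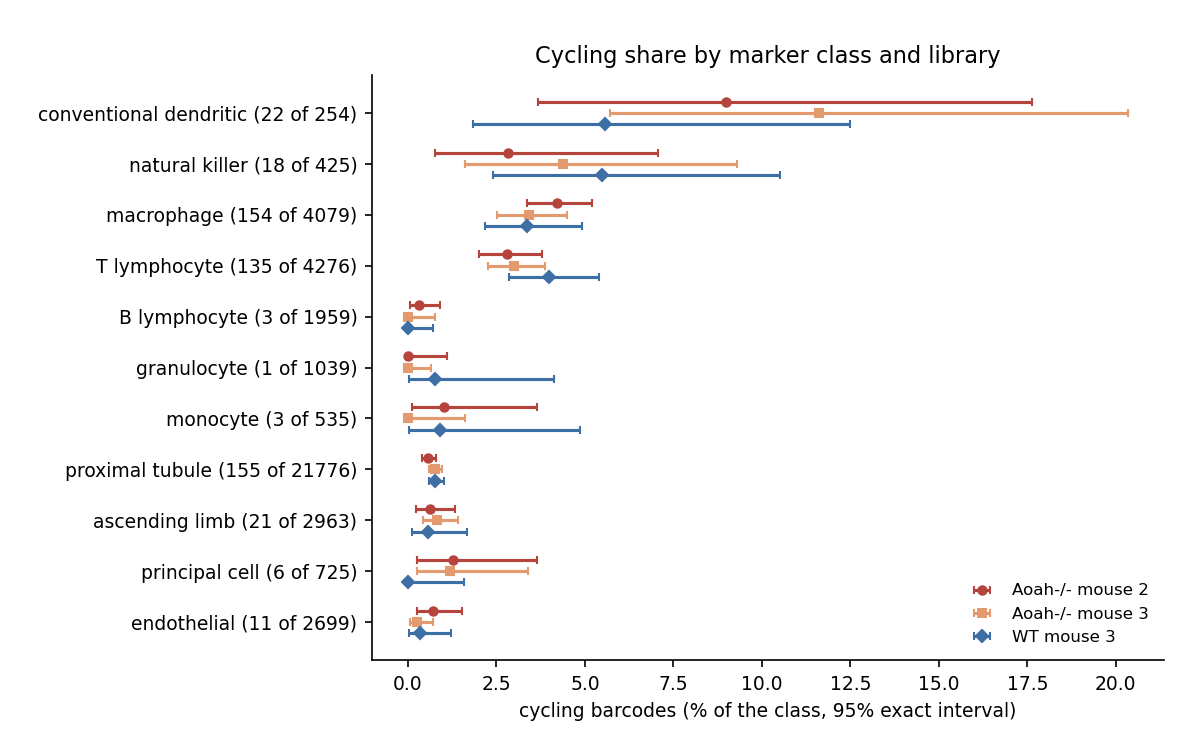
Cycling barcodes as a percentage of the kept barcodes of 11 marker classes (x axis, percent), with 1 point per library, exact binomial 95% intervals as bars, and the pooled cycling and kept numbers beside each class name. Conventional dendritic cells lie at 5.56 to 11.6%, NK cells, macrophages and T lymphocytes at 2.80 to 5.48%, and the other 7 classes at 0 to 1.26%.

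Conventional dendritic cells, which carry antigen to T cells, had the highest cycling share of the larger immune classes, 8.66% of 254 pooled cells (5.51 to 12.8%). By library the shares were 8.97, 11.6 and 5.56%, from 7, 10 and 5 cells. Macrophages stood at 4.20, 3.41 and 3.36%, T lymphocytes at 2.80, 2.98 and 3.99% and NK cells at 2.82, 4.38 and 5.48%. The macrophage share was highest in Aoah-/- mouse 2, and the T and NK shares were highest in WT mouse 3, each with overlapping intervals.

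B lymphocytes and granulocytes, most of which rest or have left the cycle, had the lowest cycling shares of the immune classes plotted. Cycling barcodes were 3 of 1959 B lymphocytes (0.153%, 0.0316 to 0.447%) and 1 of 1039 granulocytes (0.0962%). Whether these few calls are background was not tested, and all 3 B lymphocytes still passed after thinning. Median depth was 3339, 2455 and 2349 UMIs in B lymphocytes and 2049.5, 2196 and 2304 UMIs in granulocytes, against 2755, 3063.5 and 3104.5 UMIs in T lymphocytes. At the UMI limit, 1.99% of T lymphocytes, 1.32% of macrophages, 3.54% of dendritic cells and 2.59% of NK cells passed the rule, against 0.153% of B lymphocytes. All 3 cycling B lymphocytes were in Aoah-/- mouse 2. Aoah-/- mouse 3 had 0 of 479 and WT mouse 3 had 0 of 525 B lymphocytes, which allows shares of up to 0.626% and 0.571% if 3 counts are taken as the limit of a count of 0 (exact binomial upper limits 0.767 and 0.70%).

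Among epithelial classes the cycling share was 0.712% in 21776 proximal tubule cells (0.604 to 0.833%), 0.709% in 2963 ascending limb cells (0.439 to 1.08%) and 0.828% in 725 principal cells (0.304 to 1.79%), with overlapping intervals. Proximal tubule cells by library stood at 0.572, 0.757 and 0.773%. Endothelial cells stood at 0.408% of 2699 (0.204 to 0.728%). The thinned proximal tubule share was 0.266%, which lies inside the interval of the B lymphocyte share.

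Cycling macrophages of Aoah-/- mouse 2 differed from those of the other libraries in their marker genes. Timd4, a phosphatidylserine receptor of long-lived resident macrophages, was found in 52 of its 81 cycling macrophages, against 2 of 48 in Aoah-/- mouse 3 and 0 of 25 in WT mouse 3. Barcodes with 3 or more of the 8 genes Gata6, Timd4, Icam2, Prg4, F5, Selp, Alox15 and Garnl3, known from large macrophages of the peritoneal cavity, were therefore counted. This list was chosen after the values were seen. Such barcodes numbered 1298, 25 and 74 among kept cells and 74, 2 and 4 among cycling cells, so that 5.70, 8.0 and 5.41% of them were cycling.

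They made up 43.3% of the cycling immune cells of Aoah-/- mouse 2, 0.730% in Aoah-/- mouse 3 and 4.35% in WT mouse 3. Of all kept immune cells they were 20.4, 0.254 and 2.14%. Without them, the cycling share of immune cells was 1.99% in Aoah-/- mouse 2 (1.59 to 2.46%), 2.48% in Aoah-/- mouse 3 (2.08 to 2.92%) and 3.0% in WT mouse 3 (2.42 to 3.69%). Both Aoah-/- libraries lay below WT with and without them, and the intervals of Aoah-/- mouse 2 and WT overlapped slightly. The immune share of cycling cells became 61.6, 57.4 and 54.7%, and the cycling share of all cells 0.976, 1.21 and 1.22%. In the macrophage class 19 of 860, 47 of 1394 and 21 of 684 remaining barcodes were cycling, or 2.21, 3.37 and 3.07%. Calls of peritoneal genes and of the cycle both rest on detection. Cycling macrophages of Aoah-/- mouse 2 were deeper, with a median of 10099 UMIs against 5362.5. Each of the peritoneal genes was slightly lower in them than in its non-cycling macrophages, Timd4 at 285 CPM against 306 CPM. What part depth had in these shares was not tested. How the macrophages with peritoneal genes entered the suspension was not tested either. In WT mouse 3 the mesothelial class, the lining of the abdominal surface, held 130 kept barcodes, against 1 in Aoah-/- mouse 2 and 0 in Aoah-/- mouse 3.

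Genes were compared between cycling and non-cycling cells of the same lineage and library. A log2 ratio is that of the CPM values after 10 CPM was added to each, and a gene was counted when it was past 2-fold on the same side in all 3 libraries, among genes at 20 CPM or more in either class in every library. The 5 selection genes were left out. Since cells were selected on cell cycle genes, these values describe the cells and carry no test. In immune cells 238 of 5610 genes were higher (4.24%) and 47 were lower (0.838%). In epithelial cells 303 of 5980 genes were higher (5.07%) and 36 were lower (0.602%). The median log2 ratio of all tested genes was 0.02 in immune and 0.12 in epithelial cells.

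**Figure D3:**
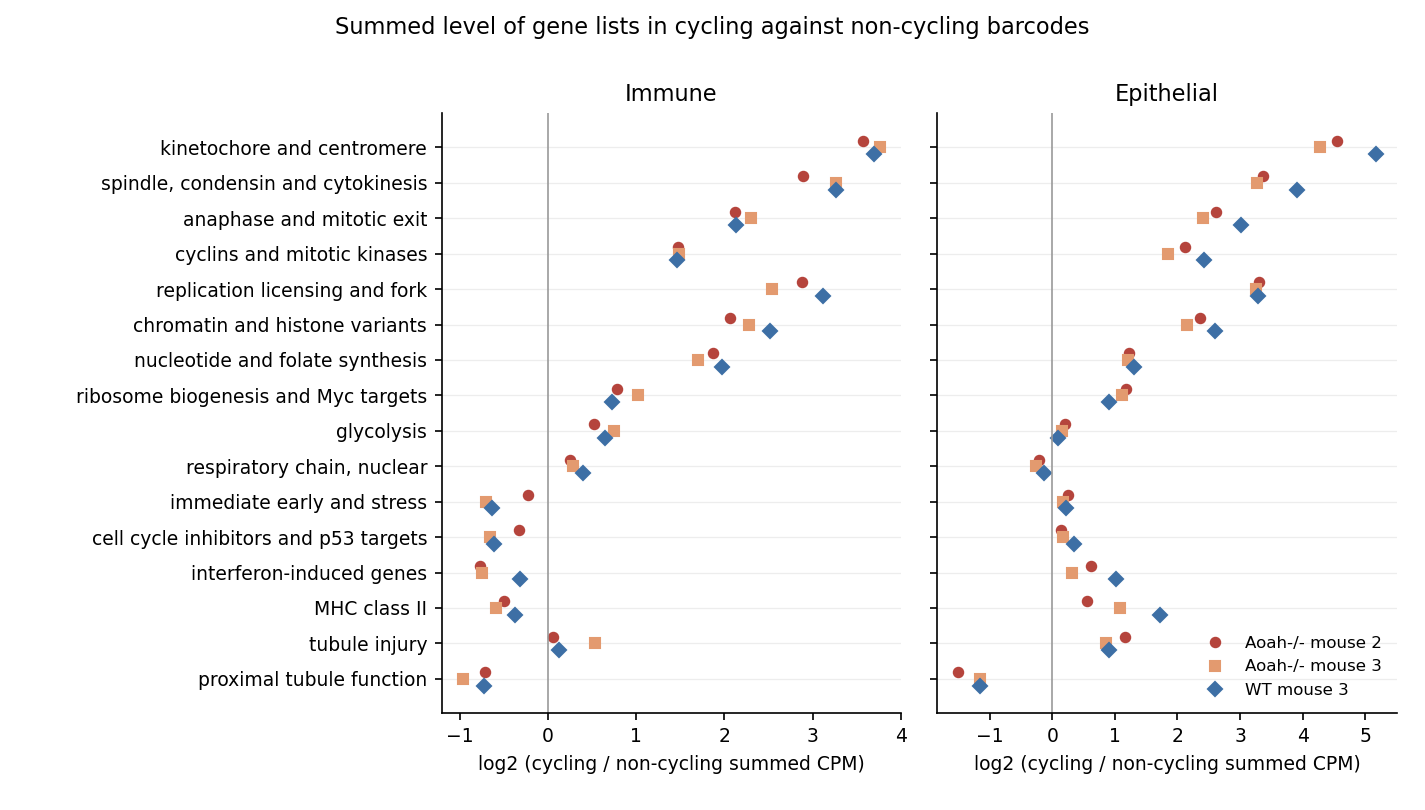
Log2 ratio of the summed CPM of each gene list in cycling over non-cycling barcodes (x axes, log2, 10 CPM added), with 1 point per library, for the immune (left) and epithelial lineage (right). The kinetochore, spindle, anaphase, replication and chromatin lists lie above 2 in every library and lineage, MHC class II lies below 0 in immune and above 0 in epithelial barcodes, and proximal tubule function lies below 0 in both.

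Kinetochore and spindle genes gave the highest mean ratios of the lists plotted in both lineages. Of the kinetochore and centromere genes, 19 of 20 tested were higher in immune cells and 19 of 19 in epithelial cells. The summed level of the list was 1600, 2091 and 1913 CPM in cycling immune cells against 125, 145 and 138 CPM in non-cycling ones. In cycling epithelial cells it was 1985, 1547 and 2660 CPM against 74.8, 70.6 and 64.4 CPM. Cycling cells of all 3 libraries thus stood apart from non-cycling cells, with log2 ratios of 3.58, 3.76 and 3.70 in immune and 4.56, 4.27 and 5.17 in epithelial cells.

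Cenpf, a kinetochore protein that accumulates in G2, had the largest epithelial ratio of the named genes, with 409, 275 and 588 CPM in cycling against 2.28, 1.64 and 1.14 CPM in non-cycling epithelial cells. It was found in 36 of 56, 57 of 95 and 53 of 69 cycling epithelial cells. Cdca8, the borealin subunit of the passenger complex, stood at 162, 234 and 215 CPM against 4.29, 5.01 and 5.39 CPM in immune cells. Cenpe, a kinetochore motor, stood at 147, 137 and 223 CPM against 2.65, 2.11 and 1.86 CPM in epithelial cells. The libraries did not overlap between cycling and non-cycling cells for any of the 3 genes.

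All 29 tested spindle, condensin and cytokinesis genes were higher in immune cells and all 30 in epithelial cells. In immune cells tubulins were the most abundant of them: Tuba1b stood at 1292, 1291 and 1345 CPM in cycling cells against 236, 187 and 177 CPM in the rest. Stmn1, a protein that destabilises microtubules, was at 470, 946 and 1154 CPM against 18.9, 37.3 and 35.2 CPM in immune cells. In epithelial cells Stmn1 was at 586, 762 and 1371 CPM against 41.8, 49.9 and 50.8 CPM. Stmn1 was lowest in Aoah-/- mouse 2 and highest in WT mouse 3 in cycling cells of both lineages. Kif11, the motor whose promoter is printed above, stood at 138, 148 and 165 CPM against 1.43, 1.53 and 1.52 CPM in immune cells. Prc1, which bundles microtubules of the central spindle, was at 281, 183 and 392 CPM against 1.24, 1.05 and 0.768 CPM in epithelial cells.

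Genes of anaphase and mitotic exit were led by Ube2c, the ubiquitin-conjugating enzyme of the anaphase-promoting complex. It was at 311, 451 and 370 CPM against 3.57, 3.99 and 5.62 CPM in immune cells, and at 296, 221 and 503 CPM against 0.698, 1.48 and 1.03 CPM in epithelial cells. Of this list 8 of 11 tested genes were higher in immune cells and 8 of 12 in epithelial cells. Cdc20, whose promoter is also printed above, was at 142, 123 and 323 CPM against 0.762, 1.25 and 0.559 CPM in epithelial cells. Among cyclins and mitotic kinases 15 of 21 tested were higher in immune and 14 of 19 in epithelial cells.

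Of the D-type cyclins Ccnd1, Ccnd2 and Ccnd3, which act in G1, none was past 2-fold in all 3 libraries in either lineage. This group was picked after its values were seen. Ccnd2, a D-type cyclin of lymphocytes and macrophages, was at 112, 125 and 170 CPM in cycling immune cells against 192, 211 and 237 CPM in non-cycling ones, lower in all 3 libraries but short of 2-fold. Ccnd1, the D-type cyclin of epithelia, was at 236, 154 and 179 CPM in cycling epithelial cells against 121, 126 and 129 CPM, higher in all 3 but again short of 2-fold. Ccnb2, a mitotic cyclin, was at 115, 107 and 182 CPM against 0.688, 0.818 and 0.728 CPM in epithelial cells.

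Of the replication licensing and fork genes, 24 of 27 tested were higher in immune cells and 23 of 25 in epithelial cells. The summed level was 2725, 2329 and 3235 CPM against 361, 393 and 362 CPM in immune cells, and 1762, 1788 and 1549 CPM against 169, 178 and 150 CPM in epithelial cells. Pclaf, listed under its older symbol 2810417H13Rik and encoding a partner of the sliding clamp, was at 398, 403 and 518 CPM against 2.82, 3.53 and 2.96 CPM in immune cells. Pcna, the clamp itself, was at 262, 220 and 243 CPM against 73.6, 72.9 and 77.7 CPM in immune cells and at 192, 157 and 179 CPM against 26.3, 25 and 21 CPM in epithelial cells. The clamp gene was thus well above 0 in non-cycling cells of both lineages, while its partner was not.

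In the nucleotide and folate synthesis list, 7 of 14 tested genes were higher in immune cells and 7 of 17 in epithelial cells. Rrm2, the regulated subunit of ribonucleotide reductase, was at 153, 119 and 185 CPM against 2.66, 2.72 and 2.20 CPM in immune cells. In epithelial cells it stood at 140, 141 and 212 CPM against 1.74, 2.01 and 1.34 CPM. Paics, an enzyme of purine synthesis, was at 166, 192 and 153 CPM against 117, 121 and 121 CPM in epithelial cells, short of 2-fold in every library. Members with a role in making deoxynucleotides, such as Rrm1, Rrm2 and Tyms, led the immune list.

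Chromatin genes were abundant, and 17 of 18 were higher in each lineage. H2afz, encoding histone variant H2A.Z, was at 2032, 2864 and 3131 CPM against 628, 713 and 807 CPM in immune cells. Hmgb2, a DNA-bending protein of dividing cells, was at 1518, 2224 and 2509 CPM against 250, 339 and 294 CPM. Hist1h1b, a linker histone made in S phase, headed the genes counted as higher in immune cells, at 468, 662 and 970 CPM against 1.98, 3.78 and 3.11 CPM, or 5.32, 5.61 and 6.22 on the log2 scale. It was found in 66 of 150, 87 of 137 and 61 of 92 cycling immune cells. Replication-dependent histone genes share near-identical copies and their mRNA mostly lacks a poly(A) tail, so their levels in a 3′ library are uncertain.

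Of the 4369 genes tested in both lineages, 215 were higher in cycling immune cells and 277 in cycling epithelial cells, and 198 were higher in both. These were 92.1% of the immune and 71.5% of the epithelial genes. No gene was past 2-fold on opposite sides, and none was lower in both.

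**Figure D4:**
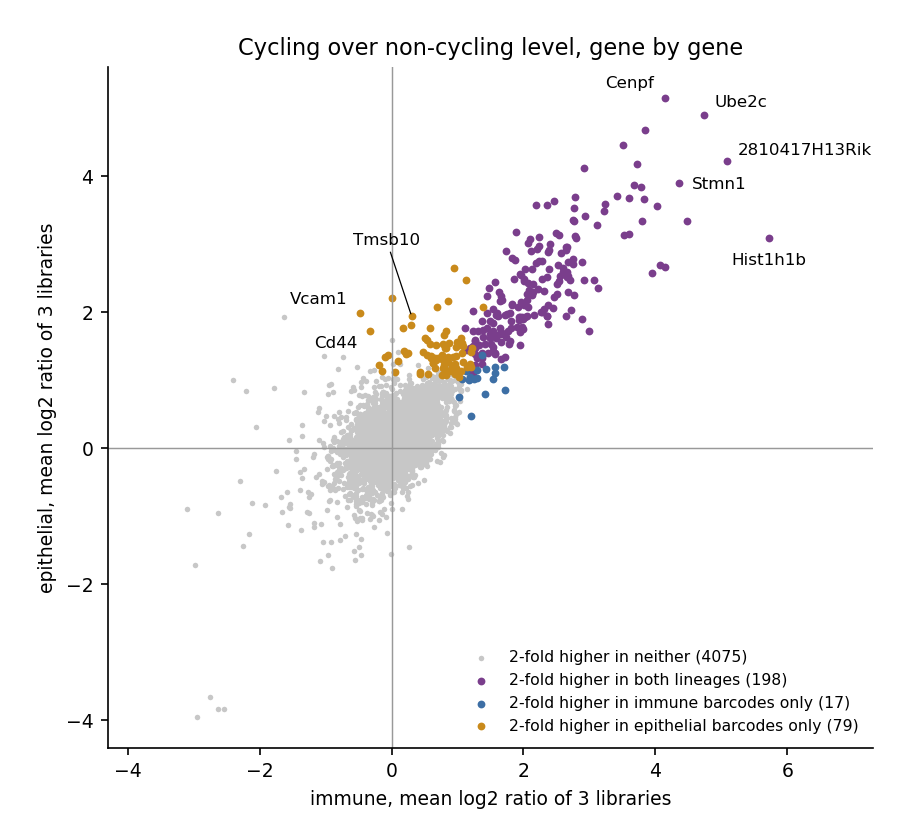
Mean log2 ratio over the 3 libraries of cycling over non-cycling barcodes (10 CPM added) in the immune (x axis) and epithelial lineage (y axis), 1 point per gene tested in both, coloured by whether the gene was past 2-fold higher in every library in both lineages (198 genes), in 1 of them or in neither. Genes higher in both lie along the diagonal, Hist1h1b lies furthest to the right, and Vcam1 and Tmsb10 lie near 2 on the epithelial axis and below 0.5 on the immune axis.

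The 198 shared genes were set against the promoter table. Symbols of 149 of them matched 172 RefSeq promoters. Within the window from 100 bases before to 50 bases after the start, a CHR (TTTGAA on either strand) was present in 57 promoters, or 33.1%, against 5.33% of the 4370 promoters of all genes tested in both lineages and 8.01% of all 32851 promoters in the table. The CCAAT box was present in 53.5%, against 26.4% and 23.4%. Both motifs were present in 22.7%, against 1.97% and 1.93%. The shared genes come from cells selected on cell cycle genes. Some, such as Cenpf, passed the 20 CPM filter only through the cycling cells, where they are high. The comparison of motif shares is therefore a description, and no conclusion is drawn from it. These are matches of letters, and no binding was measured.

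Among the genes with a larger ratio in immune than in epithelial cells were several histones. Hist1h1b stood at log2 ratios of 5.32, 5.61 and 6.22 in immune cells and 2.65, 3.76 and 2.89 in epithelial cells. Hist1h3c stood at 3.44, 4.36 and 4.03 against 2.48, 2.80 and 2.47. Pclaf stood at 4.99, 4.93 and 5.35 against 4.36, 4.24 and 4.07, and Asf1b, a histone chaperone, at 2.64, 2.74 and 3.27 against 1.99, 2.08 and 1.65. These genes were picked for this gap, and not all genes of S phase had it. The summed replication licensing and fork list stood at 2.88, 2.54 and 3.12 in immune cells and higher, at 3.31, 3.26 and 3.28, in epithelial cells. Pcna was likewise at 1.70, 1.47 and 1.53 in immune and at 2.47, 2.25 and 2.61 in epithelial cells.

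The summed level of the cyclin and mitotic kinase, kinetochore, spindle and anaphase lists was also set over that of the replication list. The 93 genes of the first sum include D-type cyclins and tubulins, which are not particular to mitosis. The log2 value was 2.15, 2.45 and 2.58 over all cycling cells. In immune cells it was 1.94, 2.45 and 1.94, and in epithelial cells 2.57, 2.39 and 3.23. Non-cycling cells gave values as high or higher in most cases, 2.35, 2.27 and 2.42 in immune and 2.86, 2.81 and 3.03 in epithelial cells, so the value is not a measure of phase. The Aoah-/- mean over all cycling cells was 0.27 below WT, with an SD of 0.21 between the Aoah-/- libraries. Per cell, genes of the first sum made up less than 50% of the UMIs of both groups in 6 of 211, 4 of 236 and 6 of 165 cells with at least 5 such UMIs.

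Genes lower in cycling immune cells included those of neutrophils and B lymphocytes. Retnlg and G0s2, neutrophil genes, were at 0, 2.46 and 0 CPM and at 3.96, 14.1 and 5.98 CPM in cycling cells. In non-cycling immune cells Retnlg was at 83.9, 133 and 79.2 CPM and G0s2 at 124, 226 and 98.7 CPM. Cd79a, a B cell receptor subunit, was at 37.0, 0 and 0.996 CPM against 253, 97.7 and 154 CPM. The cells with Cd79a numbered 4, 0 and 1. Plac8, abundant in monocytes, was at 162, 76.9 and 155 CPM against 638, 636 and 573 CPM, but it was the only 1 of 6 tested monocyte markers past 2-fold lower, and their sum was not lower in Aoah-/- mouse 2, at 3781, 615 and 910 CPM against 3578, 1470 and 1632 CPM. All 6 tested B lymphocyte markers and 5 of 8 tested granulocyte markers were past 2-fold lower. The granulocyte markers did not fall as a sum in WT mouse 3, at 66.7, 240 and 3244 CPM in cycling against 2270, 4062 and 1630 CPM in non-cycling cells. In that library 1191 of 1192 S100a8 UMIs and 1998 of 2011 S100a9 UMIs, both genes of neutrophil calprotectin, were in 1 cell each. Fewer cells of a type and less RNA per cell cannot be told apart in these summed levels.

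MHC class II genes, by which macrophages, dendritic cells and B lymphocytes present antigen, were 0 of 10 past 2-fold in immune cells. Their summed level was 10937, 13690 and 18398 CPM in cycling cells against 15407, 20544 and 23799 CPM in the rest, log2 ratios of −0.49, −0.59 and −0.37. Cd74, the invariant chain of MHC class II, was at 4290, 5084 and 6524 CPM against 6037, 7662 and 9149 CPM. Interferon-induced genes were also lower in sum, at log2 ratios of −0.77, −0.75 and −0.32, with 1 of 7 tested past 2-fold lower. Glycolysis genes were 0 of 13 past 2-fold, at 0.53, 0.75 and 0.65, and 2 of 14 ribosome biogenesis and Myc target genes were higher, at 0.79, 1.03 and 0.73. The members past 2-fold in that list included Ran, the GTPase of nuclear transport and spindle assembly, at 522, 678 and 732 CPM against 160, 172 and 191 CPM.

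Inhibitors of the cycle and p53 targets were lower in sum in cycling immune cells, at log2 ratios of −0.33, −0.65 and −0.61, with 1 gene past 2-fold higher and 1 lower of 13 tested. Btg1 and Btg2, antiproliferative genes of resting lymphocytes, were the most abundant. Btg2 was at 969, 826 and 777 CPM against 1481, 1589 and 1591 CPM. Btg1 was at 867, 879 and 807 CPM against 1338, 1633 and 1502 CPM. Both were lower in cycling cells of all 3 libraries and short of 2-fold in at least 1 of them.

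Within the macrophage class 0 of 10 MHC class II genes were past 2-fold, and 8 were lower in all 3 libraries. Of the 7 at 20 CPM or more, 7 were lower, against 20.8% of all 5080 genes tested in the class. Ciita passed that limit through the non-cycling macrophages alone. Of the 5080 genes, 38.4% were higher in all 3 libraries, 3.41% were past 2-fold higher and 0.394% past 2-fold lower. The summed level was 11414, 15206 and 25825 CPM in 81, 48 and 25 cycling macrophages against 22660, 44281 and 46550 CPM in the rest. The log2 ratios of −0.99, −1.54 and −0.85 became −1.13, −1.55 and −0.79 without the barcodes holding peritoneal genes. H2-Ab1, a class II beta chain, was at 2308, 3169 and 5251 CPM against 4745, 9424 and 9561 CPM. The macrophage markers C1qa and Csf1r were close in both groups, C1qa at 2732, 4079 and 4220 CPM against 3180, 4115 and 3998 CPM. Both are among the genes that define the class, so their levels are fixed in part by it. Mrc1, another gene of that list, was lower in cycling macrophages of all 3 libraries.

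Of 18 macrophage subset genes, 8 were lower in cycling macrophages of all 3 libraries (5 of the 14 at 20 CPM or more), 1 was higher and 0 were past 2-fold in all. Without the barcodes holding peritoneal genes, 8 were lower, 1 of them past 2-fold, and 3 were higher. The gene higher before that step was Fabp5, which encodes a fatty acid binding protein, at 383, 1651 and 355 CPM against 288, 535 and 226 CPM. Mrc1, the mannose receptor of tissue macrophages, was at 41.5, 82.9 and 120 CPM against 109, 267 and 211 CPM. Fcgr4, an Fc receptor, was at 142, 41.4 and 74.1 CPM against 240, 192 and 179 CPM. Spp1, encoding osteopontin, was at 309, 4027 and 642 CPM against 609, 920 and 563 CPM, so that Aoah-/- mouse 3 alone was past 2-fold higher. Gpnmb, a gene of lipid-laden macrophages, was at 3.46, 823 and 3.09 CPM against 43.8, 265 and 57.4 CPM, again high in Aoah-/- mouse 3, where 9 of 48 cells held it.

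In the 41, 54 and 40 cycling T lymphocytes, 0 of 16 subset genes and 0 of 20 cytotoxicity and activation genes were past 2-fold in all libraries, against 5.3% of the 5394 genes tested in the class past 2-fold higher and 0.63% lower. Of the 15 subset genes at 20 CPM or more, 2 were higher and 5 lower in all 3 libraries, against 34.7 and 25.2% of the genes tested. Ccl5, a chemokine stored by memory and effector T cells, came nearest, at 3802, 3537 and 2215 CPM against 8535, 7063 and 5183 CPM, log2 ratios of −1.16, −1.0 and −1.22. Ctla4, an inhibitory receptor raised on activation, was at 282, 265 and 346 CPM against 159, 171 and 212 CPM. Of the 17 cytotoxicity and activation genes at 20 CPM or more, 2 were higher and 6 lower in all 3 libraries. Icos, a costimulatory receptor also raised on activation, was lower, at 159, 92.8 and 198 CPM against 251, 283 and 429 CPM. Tcf7, a transcription factor gene of naive and central memory T cells, was lower in all 3 libraries, at 39.1, 39.8 and 24.3 CPM against 84.2, 65.5 and 86.2 CPM. Cd8a was found in 20, 31 and 13 of the cycling T lymphocytes and Cd4 in 15, 11 and 13. Foxp3, the gene of regulatory T cells, was found in 4, 4 and 6.

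Cycling epithelial cells differed from the rest in tubule genes as well as in the cycle. Genes of tubule injury were 6 of 16 tested past 2-fold higher, against 5.07% of all genes tested. Their summed level was 12317, 10119 and 6700 CPM against 5485, 5578 and 3565 CPM. Genes of proximal tubule function were 5 of 20 past 2-fold lower, against 0.602% of all genes tested. They summed to 13193, 19824 and 24007 CPM against 37348, 44301 and 53605 CPM. Cycling and non-cycling epithelial cells did not overlap on either sum. Some injury genes, such as Cd44, passed the filter only through the cycling cells, where they are high. Lrp2 and Slc34a1 of the function list also set the lineage. The comparison with all genes is therefore a description, and no conclusion is drawn from it. Vcam1, an adhesion molecule of injured tubule cells that fail to recover, was at 142, 196 and 98.2 CPM against 29.5, 39.7 and 17.3 CPM. Its log2 ratios were 1.95, 2.05 and 1.99 in epithelial cells and −0.07, −0.76 and −0.61 in immune cells. Tmsb10, an actin-binding peptide, stood at 1.98, 1.93 and 1.94 in epithelial and 0.19, 0.46 and 0.26 in immune cells. Cd44, Anxa2 and Msn, which link membrane and cytoskeleton, were past 2-fold higher in epithelial cells in all 3 libraries and not in immune cells. Laptm5 and Selplg, which are leukocyte genes, were also among the genes higher in epithelial cells, Laptm5 at 121, 66.3 and 40.2 CPM against 29.6, 26.9 and 9.61 CPM.

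Hemoglobin and urothelial genes were among those lower in cycling epithelial cells. Hbb-bs, a beta globin, was at 37.9, 189 and 121 CPM against 899, 1372 and 2863 CPM. Upk3a, a plaque protein of the urothelium, was at 13.3, 0 and 0 CPM against 83.9, 26.3 and 23.9 CPM. Gstm1, a glutathione transferase, was at 275, 145 and 136 CPM against 1121, 433 and 492 CPM. Globin mRNA from lysed erythrocytes is common in droplet libraries. The cycling epithelial cells were the deeper ones, and what part depth had in these globin values was not tested.

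The proximal tubule class was examined by itself, since the epithelial lineage mixes tubule segments. In its 34, 66 and 55 cycling cells, 12 of 17 tubule injury genes were past 2-fold higher in all 3 libraries and 15 were higher in all. Of the 5543 genes tested in the class, 6.04% were past 2-fold higher and 45.3% higher in all 3 libraries. Of the 16 injury genes that passed the same filter, 12 and 14 were. Several, such as Havcr1 and Cd44, passed it only through the cycling cells, where they are high. The comparison with all genes is therefore a description, and no conclusion is drawn from it. The injury list summed to 8287, 6623 and 4866 CPM against 1968, 2464 and 1104 CPM. Without Spp1, its most abundant gene, the sum was 3015, 3128 and 2723 CPM against 575, 864 and 476 CPM. Vim, the intermediate filament gene of dedifferentiated tubule cells, was at 254, 370 and 238 CPM against 23.9, 51.3 and 18.3 CPM. Havcr1, the gene of kidney injury molecule 1, was at 42.1, 67.7 and 27.5 CPM against 4.28, 4.44 and 3.29 CPM, but it was found in only 4 of 34, 7 of 66 and 2 of 55 cycling cells. Vim was found in 15, 37 and 8 of them. Krt8, a keratin, was at 456, 508 and 583 CPM against 133, 150 and 120 CPM. Sox9, a transcription factor of regenerating tubules, was at 24.5, 100.2 and 23.5 CPM against 13.9, 19.6 and 8.02 CPM and was past 2-fold in Aoah-/- mouse 3 alone. The injury genes that were not higher in every library were Lcn2 and Plin2.

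**Figure D5:**
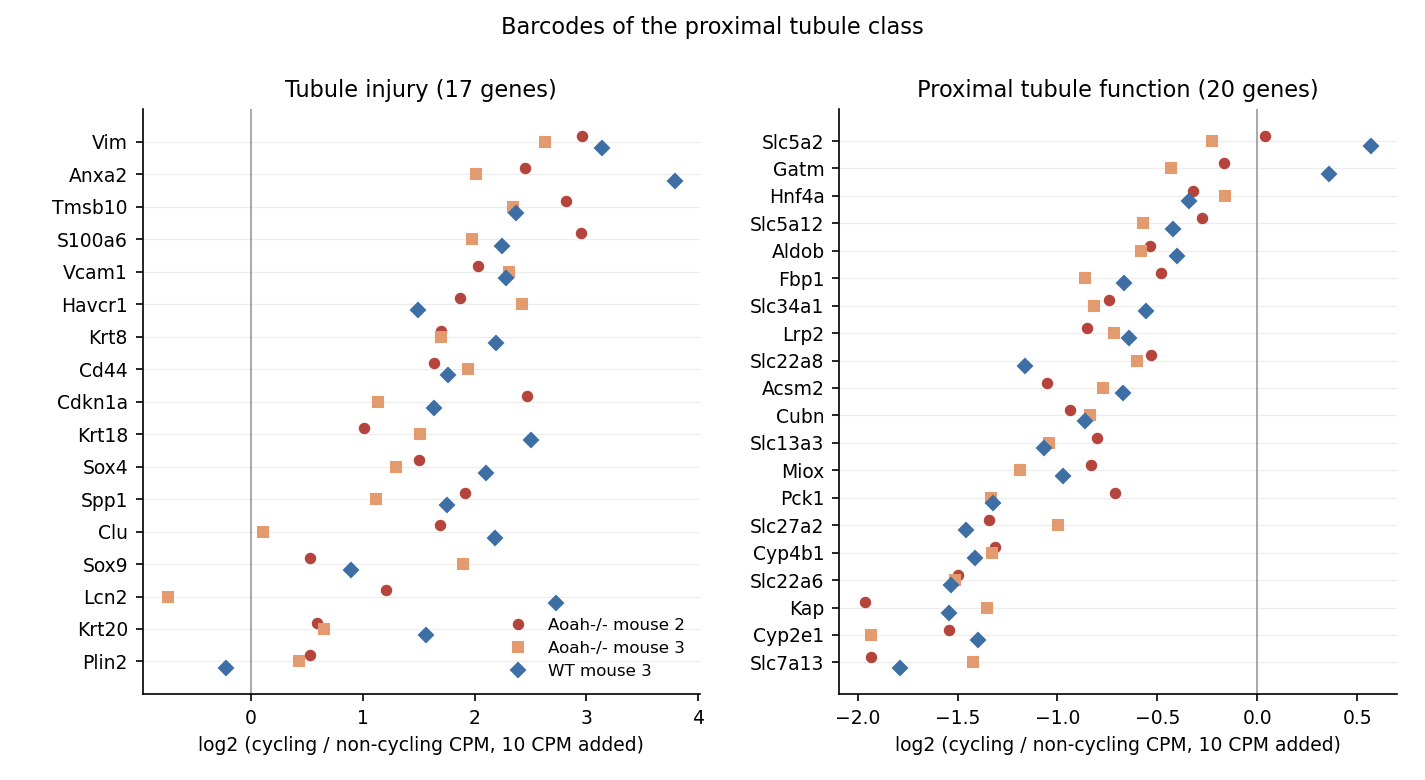
Log2 ratio of cycling over non-cycling cells of the proximal tubule class (x axis, log2, 10 CPM added) for genes of tubule injury and of proximal tubule function, with 1 point per library. All 3 points of Vim, Anxa2, Tmsb10 and S100a6 lie near or above 2, those of Slc22a6, Kap, Cyp2e1 and Slc7a13 lie below −1, and Lcn2, Plin2, Gatm and Slc5a2 have points on both sides of 0.

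Of the proximal tubule function genes, 5 of 20 were past 2-fold lower in the cycling cells of that class and 18 were lower in all 3 libraries, against 0.649% and 23.4% of the genes tested. Their sum was 22084, 28463 and 29265 CPM against 56600, 64056 and 67646 CPM, log2 ratios of −1.36, −1.17 and −1.21, which were −0.77, −0.88 and −0.74 without Kap. Kap, an androgen-regulated protein and the most abundant mRNA of the list, was at 8572, 16371 and 15081 CPM against 33509, 41777 and 44016 CPM. Slc22a6, the organic anion transporter OAT1, was at 221, 226 and 234 CPM against 642, 665 and 698 CPM. Cyp2e1 and Cyp4b1, which are cytochrome P450 enzymes, and Slc7a13, an amino acid transporter of the late proximal tubule, were the others. Hnf4a, the transcription factor that maintains proximal tubule identity, was close to the rest, at 163, 172 and 188 CPM against 206, 194 and 241 CPM. Lrp2, used in the lineage rule, was at 710, 737 and 844 CPM against 1288, 1217 and 1324 CPM. The genes that define the class, Lrp2 and Slc22a6 among them, are all in the function list. Cycling cells of the class were also deeper, with medians of 15865, 7586 and 19212 UMIs against 7404, 3866 and 8466. What part class assignment and depth had in these values was not tested. The comparison with all genes is therefore a description, and no conclusion is drawn from it.

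Cell cycle inhibitors were 4 of 20 past 2-fold higher in cycling proximal tubule cells, Cdkn1a, Cdkn2c, Cdkn2d and Gadd45b. Of the 14 at 20 CPM or more these were 4, against the 6.04% of all genes tested. All 4 passed that filter in at least 1 library only through the cycling cells, where they are high. The comparison with all genes is therefore a description, and no conclusion is drawn from it. Cdkn1a, encoding p21, was at 167, 78.5 and 67.7 CPM against 21.9, 30.3 and 15.0 CPM. Cdkn2d, an inhibitor of CDK4 and CDK6, was at 47.3, 44.7 and 127 CPM against 7.35, 8.50 and 5.70 CPM. Gadd45b was at 128, 167 and 47.1 CPM against 28.9, 50.9 and 18.3 CPM. Cdkn2a, the gene of p16 and ARF, was at 5.26, 1.35 and 0.981 CPM against 0.183, 0.260 and 0.0259 CPM, too few molecules for a ratio.

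Immune RNA accompanied the cycling proximal tubule cells. The summed level of the immune lineage genes was 247, 195 and 101 CPM in cycling cells of the class against 63.4, 128 and 32.1 CPM in the rest. After barcodes with 2 or more UMIs of both lineages were left out, 24, 47 and 49 cycling cells remained, with 8.18, 27.2 and 28.5 CPM against 15.7, 36.8 and 8.63 CPM. The step selects on these same genes, so their fall follows from it and does not show that the remaining cells are free of immune RNA, and in WT mouse 3 the level stayed higher in cycling cells. The injury list had 12 of 17 genes past 2-fold higher before and after the step, at log2 ratios of 2.07, 1.42 and 2.13 before it and 2.39, 1.56 and 2.10 after it. The function list had 5 of 20 past 2-fold lower before it and 6 after it. MHC class II genes changed with this step. They were 5 of 10 past 2-fold higher before it, at 2.20, 1.23 and 2.31, and 0 of 10 after it, at 1.44, −0.42 and 2.36. The ratio in WT mouse 3 was thus nearly the same after the step. The part of immune RNA in the injury values was not tested.

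Cycling cells were compared between genotypes by counting genes with both Aoah-/- libraries past 2-fold on the same side of WT. In cycling immune cells 17 of 6116 genes were higher (0.278%) and 36 were lower (0.589%). In cycling epithelial cells 99 of 6936 were higher (1.43%) and 53 were lower (0.764%). With 1 WT mouse, genotype and the single animal cannot be told apart.

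Aoah itself, on chr13:20794113-21036617 (plus strand, GRCm38), was at 6.78, 6.19 and 18.3 CPM in all kept cells. In cycling cells it was at 3.16 CPM in Aoah-/- mouse 2 (exact Poisson 95% interval 1.36 to 6.22 CPM), 2.42 CPM in Aoah-/- mouse 3 (0.971 to 4.98 CPM) and 9.06 CPM in WT mouse 3 (5.61 to 13.8 CPM), from 8, 7 and 21 UMIs. The Aoah-/- libraries were lower and not at 0. Reads of a 3′ library outside the deleted part of the gene would still be counted, and the deleted part is not given in the sources used here. In cycling epithelial cells Aoah was at 3.07, 4.04 and 13.1 CPM and in cycling immune cells at 3.30, 1.23 and 3.98 CPM.

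In immune cells the genes furthest above WT were Tpm3-rs7 and Gm8730. Tpm3-rs7 was at 76.6, 86.7 and 6.97 CPM in cycling and at 60.8, 58.7 and 4.48 CPM in non-cycling immune cells. Gm8730 was at 211, 196 and 34.9 CPM in cycling and 174, 155 and 27.1 CPM in non-cycling ones. Both differed in resting cells too, and both are copies near to another gene (of a tropomyosin and of a ribosomal protein), so that their counts are uncertain. Emp1, an epithelial membrane protein also made by activated leukocytes, was at 48.9, 63.3 and 7.97 CPM. Cd93, a receptor of myeloid and endothelial cells, was at 70.7, 28.3 and 4.98 CPM. Defb1, a tubule defensin, was at 35.0, 40.6 and 6.97 CPM in these immune barcodes.

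Genes furthest below WT in immune cells came from few cells. Ngp, a granule protein of immature neutrophils, was at 0, 0 and 233 CPM, and all 234 UMIs were in 1 WT cell. Hbb-bs was at 35.7, 178 and 4200 CPM, and 97.3% of its 4216 WT UMIs were in 2 cells. Hba-a1, Hba-a2 and Hbb-bt, the other globins, were lower in the same way. Non-cycling immune cells differed in the same direction, with Hbb-bs at 1210, 1466 and 4788 CPM and Hba-a1 at 481, 557 and 1867 CPM. Of the 36 genes, 14 were found in 3 or fewer cells of the higher side and 11 in at least 10% of its cells. The latter held the 4 globin genes, of which Hbb-bs was found in 59 of the 92 WT cells, and Gzma and Ifng, effector genes of NK and T cells. The NK cell marker list was at 446, 654 and 1328 CPM in cycling immune cells, and the NK class held 4, 6 and 8 cycling cells.

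In epithelial cells the 5 genes furthest above WT were Hsd11b2, Aqp2, Ccl4, Klk1 and Gm8730, the last at 121, 109 and 16.2 CPM and, as in immune cells, uncertain. Hsd11b2, the enzyme that shields the mineralocorticoid receptor from glucocorticoids, was at 164, 208 and 12.4 CPM. Of its Aoah-/- UMIs, 81.9 and 82.6% came from 2 cells in each library. Aqp2, the water channel of principal cells, was at 87.1, 47.7 and 0 CPM, with 89.4 and 91.5% of the Aoah-/- UMIs from 2 cells in each library. Ccl4, a chemokine of activated myeloid cells, was at 68.7, 115 and 5.41 CPM. Klk1, the kallikrein of the connecting tubule, was at 416, 518 and 83.5 CPM. The principal cell list stood at 451, 441 and 78.9 CPM and the macrophage list at 315, 154 and 26.3 CPM in the cycling epithelial cells. The part of these other cell types in the 99 genes was not tested.

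Below WT in epithelial cells stood mesenchymal and mesothelial genes. Dcn, the proteoglycan decorin, was at 2.05, 1.62 and 367 CPM, and 99.2% of its 474 WT UMIs were in 2 cells. The difference was also present outside the cycle, with Dcn at 11.8, 8.86 and 319 CPM and Igfbp6 at 1.22, 1.21 and 125 CPM in non-cycling epithelial cells. Igfbp6, Col3a1, Myl7 and Upk3b were the others furthest below, and Col3a1 was found in 2 WT cells and in 0 cells of the Aoah-/- libraries. The 2 cycling mesothelial barcodes of WT mouse 3 were assigned to the epithelial lineage. Of the 53 genes, 17 were found in 3 or fewer cells and 26 in at least 10%. Those 26 included Cdc20 and Hmmr, a spindle protein, Cdc20 at 142, 123 and 323 CPM and Hmmr at 170, 166 and 384 CPM. Of the 99 genes above WT, 81 were found in at least 10% of the cells of both Aoah-/- libraries and 0 in 3 or fewer, as were 15 and 0 of the 17 such genes in immune cells.

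By list, the summed level of mitotic genes was lower and that of tubule injury genes higher in the cycling epithelial cells of both Aoah-/- libraries. Relative to WT on the log2 scale, spindle genes stood at −0.53 and −0.59 and kinetochore genes at −0.42 and −0.78. Without Stmn1, its most abundant gene, the spindle list stood at −0.40 and −0.53. The kinetochore list without Cenpf stood at −0.39 and −0.70. The cells were selected on genes of the same kind. Each selection gene was also highest in WT in cycling epithelial cells, Cdk1 at 180, 141 and 298 CPM. What part the selection had in the mitotic list values was not tested. Tubule injury genes stood at 0.88 and 0.59 as a sum, and some members were below WT in both libraries. Spp1 alone gave 6543, 5247 and 2520 CPM of that sum, and without it the list stood at 0.46 and 0.22. In the proximal tubule class the injury sum without Spp1 was 3015, 3128 and 2723 CPM. Krt8 in all cycling epithelial cells was at 606, 601 and 602 CPM, and Anxa2 was below WT, at 195, 283 and 302 CPM. In cycling epithelial cells proximal tubule function genes stood at −0.86 and −0.28 as a sum, and at −0.53 and −0.49 without Kap. In non-cycling epithelial cells the injury list was at 5485, 5578 and 3565 CPM and the function list at 37348, 44301 and 53605 CPM, so that both lists were on the same side of WT outside the cycle. In cycling immune cells MHC class II genes were at −0.75 and −0.43 and chromatin genes at −0.69 and −0.23 relative to WT, and the spindle list at −0.28 and 0.01. Non-cycling immune cells held MHC class II genes at 15407, 20544 and 23799 CPM, also below WT in both Aoah-/- libraries. Chromatin genes were at 1836, 2190 and 2179 CPM there, below WT in Aoah-/- mouse 2 alone. Each list value comes from 56 to 150 cells per Aoah-/- library and from 69 or 92 cells of 1 WT mouse.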

How the data were processed

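Kidneys were digested with collagenase and DNase and loaded on a 10x Genomics Chromium 3′ system. The deposited matrices hold whole UMI counts per gene and barcode that the authors made with Cell Ranger (3.1.0 in the submitters' processing notes, which also name STAR, Seurat 4.2.0 and mm10; the file headers give 6.1.2). Counts were used as deposited, for 27998 genes. Depth was 158551992 to 167222984 UMIs per library, and intervals cover counting error only.

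The cycling rule and all gene lists were chosen with earlier results of these data known. The T lymphocyte and macrophage subset lists were added after the files were opened and before their levels were read, and the peritoneal list after values were seen. UMIs were summed per library and class. Groups were taken from the labels. No test across mice was made. Named genes were, in each lineage, the 10 furthest up and the 10 furthest down between cycling and non-cycling cells, the 5 furthest up and down between genotypes, and up to 4 most abundant genes of a list; class-level genes and the lineage contrast were added later. No doublet caller was run; barcodes with 2 or more UMIs of both lineages were left out as an alternative. Other UMI, mitochondrial, detection, pseudocount and fold limits were also tried. The procedure was tested on simulated data. Python 3.11.15, numpy 2.4.6, scipy 1.17.1, pandas 2.3.3 and matplotlib 3.10.9 were used.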

Additional observations from a re-analysis of the deposited data

Results flagged for a closer look

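In 4 gene lists the cycling cells of both Aoah-/- libraries lay on one side of WT in immune cells and on the other side in epithelial cells. The difference between lineages was not tested. Replication licensing and fork genes stood at −0.25 and −0.47 (log2 against WT) in immune and at 0.19 and 0.21 in epithelial cells, a difference of mean values of −0.555. Interferon-induced genes stood at −0.52 and −0.30 in immune and at 0.06 and 0.18 in epithelial cells, a difference of −0.529. Proximal tubule function genes stood at 0.11 and 0.34 in immune and at −0.86 and −0.28 in epithelial cells, a difference of 0.791. Granulocyte markers stood at −5.41 and −3.70 in immune cells, where nearly all WT UMIs of S100a8 and S100a9 came from 1 cell each, and at 0.21 and 0.73 in epithelial cells, a difference of −5.02.

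Barcodes with 500 or more UMIs but fewer than the limit entered no comparison except as an alternative limit. Cycling barcodes by the same rule were 11 of 5927 in Aoah-/- mouse 2 (0.186%) and 4 of 4931 in WT mouse 3 (0.0811%). They are given because they lie outside the cells compared in the report, and whether they are dividing cells was not tested. Aoah-/- mouse 3 had no barcode in this range.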

How the results depend on the processing

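Of 116 values of the shares, counts and ratio of list sums under alternatives, 88 stayed within the spread between libraries or within 1.5 times the count, and 25 moved further. In another 3, all of the epithelial share, a difference with both Aoah-/- libraries below WT changed sign. The share of all cells, where WT lay between the Aoah-/- libraries, also fell below 0 in 4 cases, the 3 given below and −0.0397 after thinning. Values below are the Aoah-/- mean minus WT in percentage points. For the cycling share of cells (0.0500), a limit of 500 UMIs gave 0.200, 3000 UMIs 0.322, at most 20% mitochondrial UMIs 0.256, and 4 of the 5 genes −0.0829. For the cycling share of epithelial cells (−0.0646) the same settings gave 0.0237, 0.0877, 0.239 and −0.201. For the cycling share of immune cells (−0.432), 500 UMIs gave −0.00632. The limit of 500 UMIs adds no barcode to Aoah-/- mouse 3, so it acts unequally on the libraries. Without barcodes holding peritoneal macrophage genes, an alternative chosen after seeing the data, the share of all cells gave −0.130 and that of immune cells −0.771. Without Aoah-/- mouse 2 the cycling share of cells gave −0.0296. The immune share of cycling cells (8.28) ranged from 1.565 to 17.7 over the alternatives. The level of the 4 mitosis lists over the replication list in cycling cells, a log2 difference of −0.27, was −0.61 without barcodes of both lineages and −0.0455 as a mean per cell. Genes higher in cycling cells were 455 (immune) and 600 (epithelial) at 1.5-fold.

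Genes past 2-fold between genotypes, 53 in immune and 152 in epithelial cells, were 237 and 568 at 1.5-fold, 122 and 305 with 1 CPM added, and 99 and 229 with 4 of the 5 genes. They were 282 in epithelial cells at 20% mitochondrial UMIs, 81 in immune cells without barcodes of both lineages, and 26 in immune cells among genes found in at least 10% of cells, an alternative chosen after seeing the data. Leaving out Aoah-/- mouse 2 or 3 gave 144 to 383 in immune and 279 to 368 in epithelial cells, where fewer libraries have to lie past the fold. The other causes were not tested. Of 1274 values of single genes and lists, 235 moved by more than that spread.

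No paired analysis was possible because the groups share only replicate number 3. The single WT library, and 56 to 150 cycling cells per lineage in each Aoah-/- library, limit all genotype values.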
